A study of Mus musculus with 11 samples.

Results

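The epithelial organoid lines grown out of oviductal tumors were compared with the mutant organoid clones that had been transplanted to make such tumors. The members are 2 libraries, T2-epi and T4-epi, chosen by their labels, and they were set against 3 libraries of oviductal TBP clones (clones 1 to 3), out of 27 libraries in the deposited count table. All genes were examined. The clones were grown from oviductal organoids of mice that carry a Cas9-P2A-EGFP cassette at the ROSA26 locus, so that Cas9 and EGFP are made in all cells. They received sgRNAs against 3 tumor suppressor genes, among them Trp53 and Brca1, and were picked as single organoids after selection with Nutlin-3a, an MDM2 inhibitor that arrests cells with working p53. The tumors grew from such clones in immunodeficient mice, and the tumor organoids were then cultured with Nutlin-3a. Both groups therefore share the cassette, the targeted genes and a past exposure to Nutlin-3a. They differ by the passage through a mouse and by culture history, and may differ by clone of origin, which cannot be told apart here. The labels do not say which clone gave rise to which tumor, and whether the clones were in Nutlin-3a when RNA was taken is not given in the sources used here. The study describes the tumor-derived lines as grown from the same original TBP clone, with T1-mes and T2-epi from adjacent tumors. Differences between the clones can therefore enter the comparison. Nothing in the labels says that the libraries of a group came from separate cultures, so the p-values measure the spread between these libraries.

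Levels are given as CPM, the reads of a gene as parts of 1000000 reads of its library, scaled by TMM, a correction for differences in RNA composition. Clone 1 held only 82239 reads, against 2052696 in clone 2, 4531767 in clone 3, 1995230 in T2-epi and 2051891 in T4-epi. A single read was worth 10.7 CPM in clone 1 and between 0.241 and 0.571 CPM in the other 4 libraries, so a 0 in clone 1 only limits a gene to about 32.2 CPM (3 reads). The mitochondrial share of reads was 2.29% in clone 1 and 8.72% to 13.4% in the other 4. The test was therefore repeated without clone 1, and counts of genes above or below clones 2 and 3 do not use its values. The chi-square per gene between libraries of a group was 8.57 to 34.6. The reads are not corrected for molecular identifiers, so amplification adds to this value, and no library was counted as a copy of another.

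The oviduct is lined by secretory cells, which express the transcription factor Pax8 and keratins, and by ciliated cells. Organoids keep such epithelium free of stroma in culture. Tumors made from them contain host blood vessels, immune cells and fibroblasts beside the transplanted cells, and an epithelial line taken from a tumor has passed through that setting. The oviductal epithelium is regarded as a candidate source of high-grade serous ovarian cancer.

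In the pairs of values that follow, T2-epi is given before T4-epi. The epithelial label held for both lines. Epcam, an epithelial surface protein, stood at 450 CPM in T2-epi and 629 CPM in T4-epi, beside 418, 621 and 513 CPM in clones 1, 2 and 3. Cdh1, which encodes E-cadherin, was at 1060 and 1010 CPM in the epi lines and at 354, 930 and 889 CPM in the clones. Krt8 was at 906 and 1000 CPM, within or near the clones at 697, 985 and 1050 CPM. Pax8 was at 190 and 186 CPM in the epi lines and at 268, 124 and 147 CPM in the clones. The 8 pan-epithelial markers all entered the test and had a median log2 fold change of 0.05, the same as the 0.05 of all genes tested, and none was called. Without clone 1 the median was -0.24, with 1 of the 8 positive, and 3 of the 8 lay below clones 2 and 3 in both epi lines (37.5%, against 19.1% of all genes). Their summed level was 3720 and 4100 CPM in the epi lines and 4190 and 4150 CPM in clones 2 and 3.

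Markers of other cell types varied in level, and those of fibroblasts are given with the matrix genes. Pecam1 of endothelium had no read in either epi line or in any clone, and Ptprc of leukocytes had none in either epi line. Esam, the 1 endothelial marker tested, was at 0.986 and 4.65 CPM in the epi lines and at 0, 11.4 and 14.2 CPM in the clones. The myeloid markers summed to 271 and 347 CPM in the epi lines and to 386, 448 and 98 CPM in the clones, most of it from Cd14, an endotoxin co-receptor, at 256 and 310 CPM and at 354, 407 and 75.3 CPM. Msln, a mesothelial marker, was at 367 and 281 CPM in the epi lines and at 42.9, 223 and 368 CPM in the clones. Of 5 tested mesothelial and OSE (ovarian surface epithelium) markers, 3 lay below clones 2 and 3 in both epi lines (60%, against 19.1% of all genes). Above them lay 1 (20%, against 19.4%). Their median was -0.44 (-0.69 without clone 1). Sprr1a, a squamous marker, was at 2770 and 2750 CPM and at 579, 2760 and 1720 CPM. Ivl, the other squamous marker tested, stood lower, at 1.97 and 3.10 CPM and at 0, 8.56 and 12 CPM. None of the 8 smooth muscle, 9 lymphoid or 3 erythroid markers in the table had enough reads to be tested. The motile cilium list was nearly silent, with 6 of its 38 genes in the table tested, and Foxj1, the master regulator of motile cilia, stood at 1.48 and 0.516 CPM in the epi lines.

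The targeted genes were read first. Trp53 was at 5.92 CPM in T2-epi and 4.65 CPM in T4-epi, and at 0, 0.571 and 5.30 CPM in clones 1, 2 and 3. In the 3 libraries of unedited Cas9-GFP organoids it was at 54.0, 36.0 and 63.7 CPM, above every edited library named here. Trp53 had too few reads in the compared libraries to be tested. Brca1, a gene of homologous recombination, was at 7.89 and 10.8 CPM in the epi lines and at 0, 1.14 and 5.78 CPM in the clones, with a log2 fold change of 1.39 ± 0.87 (SE) and an adjusted p of 0.998. CEL-Seq2 reads the 3′ end of a transcript, so these levels do not check the edits themselves.

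With clone 1 set aside, clones 2 and 3 differed from each other about as much as from the epi lines. Over the 9580 genes tested, the median absolute difference was 0.477 on the log2(CPM + 2) scale between clones 2 and 3 and 0.386 between T2-epi and T4-epi. It was 0.366 between T4-epi and clone 2, 0.470 between T4-epi and clone 3, 0.483 between T2-epi and clone 2, and 0.532 between T2-epi and clone 3. The shallow clone 1 stood apart from all of them, at 1.316 from clone 2, 1.385 from clone 3, 1.411 from T2-epi and 1.364 from T4-epi. The correlation across genes of T4-epi with clone 2 (r = 0.924) was close to that of T2-epi with T4-epi (0.925), and clones 2 and 3 correlated at 0.887. These are correlations across genes of single libraries, which share all genes and their base levels.

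Few genes separated the groups. edgeR's quasi-likelihood test with Benjamini-Hochberg adjustment called 7 of 9580 genes (0.0731%), 6 higher and 1 lower in the epi lines. The 6 that rose were Ccl20, Thbs2, Col3a1, Vsig1, Sema6a and Gm9926, and the gene that fell was Hspb8. A further 21 genes, 13 higher and 8 lower, had an adjusted p between 0.0511 and 0.0529, just short of the threshold of 0.05. Before adjustment 256 genes were higher (2.67%) and 208 lower (2.17%) at p under 0.05. Without clone 1 none of 9439 genes was called and the smallest adjusted p was 0.17, although 341 genes were higher (3.61%) and 286 lower (3.03%) at an unadjusted p under 0.05. None was called either when the 10 organoid libraries were fitted together, with a smallest adjusted p of 0.0638 and 404 genes higher and 325 lower before adjustment. DESeq2 on the same 5 libraries called 13 higher and 12 lower, of which Ccl20, Col3a1 and Gm9926 were among the 7.

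**Figure D1:**
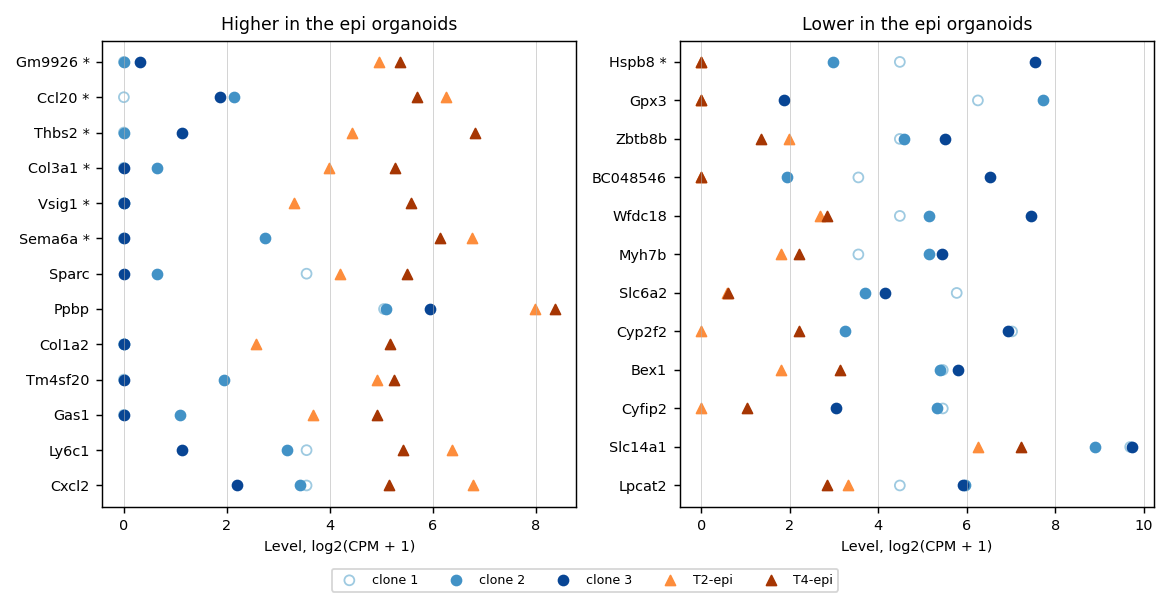
Levels of the 12 genes higher and 12 lower in the epi organoids that the naming rule chose, with Gm9926 added to the higher ones. The x axis is log2(CPM + 1), with a row per gene, circles for clones (clone 1 open) and triangles for T2-epi and T4-epi. Asterisks mark adjusted p under 0.05 in edgeR. Points at 0 overlap, and both triangles lie to one side of clones 2 and 3 in every row, as the rule required.

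The plot of levels by library shows the genes that come next. Ccl20, a chemokine that draws CCR6-bearing lymphocytes and dendritic cells, was at 0, 3.42 and 2.65 CPM in clones 1, 2 and 3 and at 75.0 and 50.6 CPM in the epi lines. Both epi lines lay above all clones. The log2 fold change was 4.43 ± 0.66 (SE) with an adjusted p of 0.0112, and 4.39 without clone 1, where the adjusted p was 0.17. In the other groups Ccl20 ranged from 0.983 to 20.1 CPM in Cas9-GFP organoids and from 0 to 49.8 CPM in the 6 tumors. The gene lies on chromosome 1 from 83116766 to 83119167 on the plus strand of GRCm38.

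Ccl20 was 1 of a set of secreted defence genes that stood higher in both epi lines. Of 32 tested members of the secreted defence and chemokine list, 17 lay above clones 2 and 3 in both epi lines (53.1%, against 19.4% of all genes tested) and 2 lay below (6.25%, against 19.1%). The median log2 fold change was 0.61, and 0.55 without clone 1. Ccl20 was the only member called. At an unadjusted p under 0.05, 11 members were higher and 2 lower, both with and without clone 1. The shares over all genes were 2.67% and 2.17% with clone 1. Neutrophil chemokines that signal through CXCR2 were among the higher members. Ppbp was at 32.2, 33.1 and 60.7 CPM in the clones and 254 and 330 CPM in the epi lines (log2 fold change 2.71 ± 0.52, adjusted p = 0.0511). Cxcl2 was at 10.7, 9.70 and 3.61 CPM in the clones and at 109 and 34.6 CPM in the epi lines (3.44 ± 0.70, adjusted p = 0.0529). Cxcl1, named after its value was seen, was at 0, 5.71 and 2.41 CPM and at 45.4 and 30.5 CPM (3.36 ± 0.70, adjusted p = 0.0529). For all 3 the epi lines lay above clones 2 and 3, yet none passed the threshold.

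More members of the list were named in the same way. Cxcl5, another ligand of CXCR2, was at 139, 122 and 4.57 CPM in the clones and at 1390 and 794 CPM in the epi lines (adjusted p = 0.0871). Cfb, complement factor B, was at 21.4, 25.7 and 3.61 CPM in the clones and at 211 and 78.5 CPM in the epi lines (adjusted p = 0.0697). Tnf, a cytokine that activates NF-kB, was at 0, 19.4 and 11.3 CPM and at 61.2 and 47.0 CPM (adjusted p = 0.42). Ccl2, a monocyte chemokine, was at 0, 0.571 and 0 CPM in the clones and at 25.6 and 9.30 CPM in the epi lines (adjusted p = 0.0511). It was far more abundant in the mesenchymal lines, at 1450 CPM in T1-mes and 132 CPM in T3-mes. In the same order Cxcl1 was at 230 and 84.5 CPM there, Cxcl2 at 125 and 73.3 CPM and Cxcl5 at 1460 and 234 CPM. Ccl20, Ppbp, Cfb and Tnf were lower in both mesenchymal lines than in both epi lines. Among Cas9-GFP organoids Cxcl5 ranged from 156 to 767 CPM. Not every member stood higher in the epi lines than in the clones. Lcn2, an iron-binding defence protein and the most abundant member, was at 5000 and 6260 CPM in the epi lines, inside the range of the clones from 2290 to 10500 CPM.

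Promoters of 3 of these chemokine genes are shown because these genes lay above clones 2 and 3 in both epi lines and hold the same short motif. NF-kB, the transcription factor family that TNF activates, binds sites of which GGNNTTTCC is a simple form. The motif was searched on both strands in the 300 bases from 250 before to 50 after each gene start (RefSeq, GRCm38.p6), and it was chosen after the values were seen. It was present in 1913 of 32851 promoters (5.82%). Of the 11 list members with a higher level at an unadjusted p under 0.05, 8 had a promoter in the table and 6 of those held a match, namely Ccl20, Cxcl1, Cxcl2, Cxcl10, Csf1 and Saa3. Over all tested members of the list it was 10 of 25 (40%), so the motif was also found in members that did not differ. A match is a description of these letters, not a bound site. Matches are in capitals, read in the direction of the gene, and overlapping matches were allowed but none occurred. The windows are chr1:83116516-83116815 for Ccl20, chr5:90890995-90891294 for Cxcl1 and chr5:90903649-90903948 for Cxcl2, all on the plus strand, with 1, 2 and 2 matches.
Ccl20: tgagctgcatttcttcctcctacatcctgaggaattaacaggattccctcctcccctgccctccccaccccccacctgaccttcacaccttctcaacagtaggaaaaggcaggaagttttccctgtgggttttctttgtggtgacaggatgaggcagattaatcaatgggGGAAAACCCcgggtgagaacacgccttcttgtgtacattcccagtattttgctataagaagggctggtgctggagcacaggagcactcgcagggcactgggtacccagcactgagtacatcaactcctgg
Cxcl1: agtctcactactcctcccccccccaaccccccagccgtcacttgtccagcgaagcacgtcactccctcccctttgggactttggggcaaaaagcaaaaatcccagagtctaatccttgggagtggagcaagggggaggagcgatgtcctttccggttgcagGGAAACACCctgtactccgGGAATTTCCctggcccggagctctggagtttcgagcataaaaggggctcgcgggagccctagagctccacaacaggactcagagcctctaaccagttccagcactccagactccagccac
Cxcl2: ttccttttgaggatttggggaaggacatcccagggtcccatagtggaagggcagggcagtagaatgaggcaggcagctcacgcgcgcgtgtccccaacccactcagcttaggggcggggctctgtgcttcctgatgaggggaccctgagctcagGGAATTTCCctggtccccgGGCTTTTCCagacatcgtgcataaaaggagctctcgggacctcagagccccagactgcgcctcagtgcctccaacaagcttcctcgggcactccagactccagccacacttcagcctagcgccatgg

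Matrix genes gave the next group among the 7 called. Thbs2, thrombospondin 2, a secreted matrix protein, was at 0, 0 and 1.20 CPM in clones 1, 2 and 3 and at 20.7 and 112 CPM in the epi lines. Both epi lines were above clones 2 and 3, with a log2 fold change of 6.31 ± 0.96 and an adjusted p of 0.0112 (0.345 without clone 1). Col3a1, the chain of type III collagen, had 1 read in all clones together and 30 and 73 reads in the epi lines, or 14.8 and 37.7 CPM. The ratio of the pooled levels was 156, with a 95% counting interval (exact binomial) from 27.4 to 6220, and the adjusted p was 0.0259 (0.329 without clone 1). Such intervals cover counting error only. Thbs2 lies on chromosome 17 from 14665500 to 14694235 on the minus strand, and Col3a1 on chromosome 1 from 45311538 to 45349706 on the plus strand.

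Genes of the same kind followed below the threshold. Sparc, a collagen-binding matrix protein, was at 10.7, 0.571 and 0 CPM in the clones and at 17.3 and 44.4 CPM in the epi lines (adjusted p = 0.0511). Col1a2 of type I collagen had no read in any clone and stood at 4.93 and 35.1 CPM, at least 39.4-fold higher against a floor of 3 reads over the 3 clones together (adjusted p = 0.0511). Gas1, a membrane protein that restrains growth, was at 0, 1.14 and 0 CPM in the clones and at 11.8 and 29.4 CPM in the epi lines (adjusted p = 0.0529). In all of these T4-epi was the higher of the epi lines. Of 26 tested members of the extracellular matrix list, 12 lay above clones 2 and 3 in both epi lines (46.2%, against 19.4% of all genes) and 5 below (19.2%, against 19.1%). The median log2 fold change was 0.56, with 0.78 without clone 1, 1.05 without clone 3 and 0.20 without T4-epi. Thbs2 and Col3a1 were called, and 11 members were higher and 2 lower at an unadjusted p under 0.05, against 2.67% and 2.17% of all genes. Members such as Col3a1, with 1 read in the clones, entered the test only through the epi lines and could only count as higher. Without clone 1, 9 of 23 tested members were higher and 1 lower, against 3.61% and 3.03% of all genes.

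These matrix levels were low beside those of the mesenchymal lines T1-mes and T3-mes. Thbs2 was at 1440 CPM in T1-mes and 9010 CPM in T3-mes, and Col3a1 at 979 and 2050 CPM. The 12 fibroblast markers summed to 32.5 CPM in T2-epi, 110 CPM in T4-epi, 3180 CPM in T1-mes and 7660 CPM in T3-mes, and to 21.4, 6.85 and 0.481 CPM in clones 1, 2 and 3. Of these markers 4 could be tested, Col3a1, Col1a2, Dcn and Col1a1, and 1, Col3a1, was called. Col3a1, Col1a2 and Dcn had 1, 0 and 1 reads in all clones together, so they entered the test only through the epi lines. Their direction was thereby fixed in advance. Col1a1 had 3 reads in the clones and 37 in the epi lines. Without clone 1, 3 could be tested, with no call. Pdgfra, a growth factor receptor of fibroblasts, was at 1.97 and 2.07 CPM against 262 and 253 CPM in the mesenchymal lines, and Pdgfrb at 0 and 0.516 CPM against 5.56 and 13.7 CPM. Vim, which encodes vimentin, was at 4.44 and 12.9 CPM against 404 and 765 CPM, and Zeb1, a transcription factor of mesenchymal cells, at 0.493 and 0.516 CPM against 63.1 and 66.4 CPM.

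The level was then taken as a share of that in the mesenchymal lines. Of 17 matrix, mesenchymal or fibroblast genes with at least 200 CPM in both mesenchymal lines, the share of the T3-mes level in T4-epi ranged from 0.817% to 171%, with a median of 1.44%. The 11 genes whose share lay between 1% and 2.5%, a band set after the values were seen, among them Vim, stood at 1.08% to 2.08%. This narrow range follows from the choice by the band. In T2-epi these 11 genes stood at 0.681% to 1.65% of their level in T1-mes. The same genes stood at 0.177% to 0.841% for T2-epi of T3-mes and at 1.59% to 7.72% for T4-epi of T1-mes. Because the band fixed the share of T4-epi in T3-mes, the spreads of the pairs cannot be compared. The labels put T2-epi under the same sample entry as T1-mes and T4-epi under that of T3-mes. Spp1, which encodes osteopontin, lay outside the band, at 95% of the T3-mes level in T2-epi and 171% in T4-epi. Axl, Thbs1, Timp2 and Ecm1 also lay above it, at 2.63% to 40.5% of the T3-mes level in T4-epi, and Pdgfra lay below it at 0.817%. Fewer mesenchymal cells and less RNA per cell cannot be told apart in such bulk libraries, and the part that RNA of mesenchymal cells had in the matrix genes was not tested. T1-mes itself held epithelial RNA, with Cdh1 at 841 CPM and Krt8 at 892 CPM, against 68.4 and 79.1 CPM in T3-mes.

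**Figure D2:**
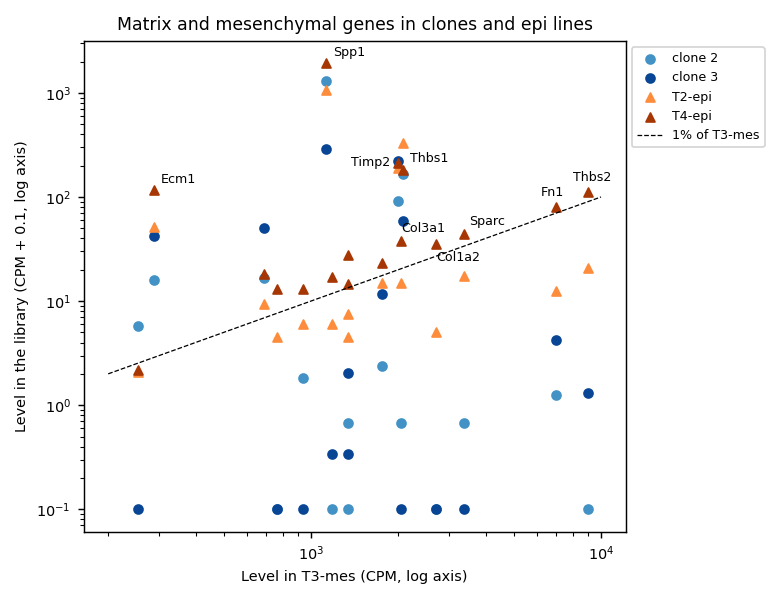
Levels of 17 matrix and mesenchymal genes in clones 2 and 3 and in the epi lines (y axis, CPM + 0.1, log scale) against their level in T3-mes (x axis, CPM, log scale), one point per gene and library, with a dashed line at 1% of the T3-mes level. Of the T4-epi points, 11 lie at 1.08% to 2.08%, just above the line, and were chosen by a band of 1% to 2.5%. Pdgfra, the leftmost, lies below the line at 0.817%, and Spp1, Thbs1, Timp2 and Ecm1 lie far above it.

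The other called genes were of mixed kinds. Vsig1, a junctional adhesion protein of the immunoglobulin family, had no read in any clone and stood at 8.88 CPM in T2-epi and 46.5 CPM in T4-epi. It was at least 54.5-fold higher against a floor of 3 reads over the 3 clones together, with an adjusted p of 0.032 (0.375 without clone 1), and it was at 25.0 CPM in T1-mes and 0 in T3-mes. Sema6a, a transmembrane semaphorin, was at 0, 5.71 and 0 CPM in the clones and at 107 and 69.7 CPM in the epi lines, a log2 fold change of 5.32 ± 0.95 with an adjusted p of 0.037 (0.421 without clone 1). In contrast to the matrix genes, Sema6a was low in the mesenchymal lines, at 3.71 and 2.93 CPM. Gm9926, a predicted gene outside the naming rule, had 1 read in all clones together and 61 and 78 reads in the epi lines, a ratio of 210 (95% counting interval 37.1 to 8370) with an adjusted p of 0.00665. Vsig1 lies on chromosome X from 140907608 to 140939472 on the plus strand, and Sema6a on chromosome 18 from 47235598 to 47368870 on the minus strand.

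Among the genes chosen to fill the rule, Tm4sf20, a tetraspan membrane protein, was at 0, 2.85 and 0 CPM in the clones and at 29.1 and 37.2 CPM in the epi lines (adjusted p = 0.0529), and at 2.78 and 0.977 CPM in the mesenchymal lines. Ly6c1 was at 10.7, 7.99 and 1.20 CPM and at 82.4 and 41.8 CPM (adjusted p = 0.0529). Its neighbour Ly6c2 is nearly identical in sequence, so the reads may be split between them.

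Hspb8, a small heat shock protein, was the 1 gene that fell. It was at 21.4, 6.85 and 184 CPM in clones 1, 2 and 3 and had no read in either epi line. It was at least 171-fold lower against a floor of 3 reads over the 2 epi lines together, with an adjusted p of 0.0422 (0.515 without clone 1), and clone 3 held 763 of the 777 reads of the clones. Without clone 3 the bound was 10-fold. It also had no read in either mesenchymal line, while it ranged from 30.6 to 55.0 CPM in Cas9-GFP organoids and from 29.1 to 362 CPM in the 6 tumors. Hspb8 lies on chromosome 5 from 116408491 to 116422864 on the minus strand.

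A longer row of lower genes missed the threshold. Gpx3, a secreted glutathione peroxidase, was at 75.1, 211 and 2.65 CPM in the clones and had no read in either epi line, at least 85.2-fold lower by the same floor (adjusted p = 0.0511). Clone 2 held 369 of its 387 reads in the clones, and without clone 2 the bound was 5.6-fold. Slc14a1, a urea transporter, was the most abundant gene of this row, at 826, 479 and 854 CPM in the clones and at 75.0 and 149 CPM in the epi lines (log2 fold change -2.68 ± 0.59, adjusted p = 0.0697). Every epi value lay below every clone. Cyp2f2, a cytochrome P450 known from airway secretory cells, was at 129, 8.56 and 121 CPM and at 0 and 3.61 CPM (adjusted p = 0.0529). Wfdc18, a secreted whey acidic protein, was at 21.4, 34.2 and 174 CPM and at 5.42 and 6.2 CPM (adjusted p = 0.0529). Bex1 was at 42.9, 41.1 and 55.1 CPM and at 2.47 and 7.75 CPM (adjusted p = 0.0529). Slc6a2, a noradrenaline transporter, was at 53.6, 12 and 16.8 CPM and at 0.493 and 0.516 CPM (adjusted p = 0.0529).

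The remaining 5 lower genes of the rule showed the same order. Zbtb8b was at 21.4, 22.8 and 44.3 CPM in the clones and at 2.96 and 1.55 CPM in the epi lines. Myh7b, a myosin heavy chain, was at 10.7, 34.2 and 42.1 CPM and at 2.47 and 3.61 CPM. BC048546 had no read in the epi lines and was at 10.7, 2.85 and 91.2 CPM in the clones. For these 3 the adjusted p was 0.0529. Cyfip2, a regulator of actin, was at 42.9, 39.4 and 7.22 CPM in the clones and at 0 and 1.03 CPM in the epi lines (adjusted p = 0.0562). Lpcat2, a lipid remodelling enzyme, was at 8.88 and 6.2 CPM in the epi lines, below all clones at 21.4, 61.1 and 59.2 CPM (adjusted p = 0.077). Wt1, a transcription factor of the urogenital tract, was looked at after its value was seen. It was at 96.5, 46.8 and 85.7 CPM in the clones and at 15.3 and 5.16 CPM in the epi lines (adjusted p = 0.0904).

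Proliferation genes stood higher in both epi lines. Of 47 tested members of the cell cycle and DNA replication list, 29 lay above clones 2 and 3 in both epi lines (61.7%, against 19.4% of all genes) and 1 lay below (2.13%, against 19.1%). The median log2 fold change was 0.92, against 0.05 over all genes tested, and 1.07 without clone 1. No member was called. At an unadjusted p under 0.05 by edgeR 17 were higher and none lower, against 2.67% and 2.17% of all genes. Without clone 1, 21 were higher and none lower. The list summed to 6650 and 6000 CPM in the epi lines and to 3030, 2330 and 4260 CPM in the clones. In the mesenchymal lines it summed to 6360 CPM in T1-mes and 4330 CPM in T3-mes, so T1-mes shared the higher level. By the rule, Top2a, the topoisomerase of dividing cells, was at 236, 137 and 375 CPM in the clones and at 654 and 600 CPM in the epi lines (log2 fold change 1.32 ± 0.53, adjusted p = 0.799). Rrm2, a subunit of ribonucleotide reductase, was at 53.6, 107 and 721 CPM and at 892 and 480 CPM, so that the groups overlapped.

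Another 4 members were named after their values were seen. Mki67, which encodes the proliferation antigen Ki-67, was at 85.8, 52.5 and 64.5 CPM in the clones and at 246 and 219 CPM in the epi lines (log2 fold change 1.86 ± 0.49, adjusted p = 0.212). Cdk1, the kinase that drives entry into mitosis, was at 172, 160 and 189 CPM and at 667 and 556 CPM (1.82 ± 0.49, adjusted p = 0.227). Ccnb1, its cyclin partner, was at 64.3, 34.8 and 25.3 CPM and at 172 and 135 CPM (2.14 ± 0.53, adjusted p = 0.144). Cenpf, a centromere protein, was at 21.4, 47.4 and 52.7 CPM and at 202 and 172 CPM (2.04 ± 0.50, adjusted p = 0.131). For these 4 every epi value was above every clone. Over the whole list clone 3 stood 0.52 above clone 2 in the median. The median distance of T2-epi was 1.78 from clone 2 and 0.80 from clone 3, and that of T4-epi 1.52 and 0.54. In the homologous recombination and Fanconi list, which is expressed with DNA replication, 14 of 31 tested members lay above both clones (45.2%, against 19.4% of all genes). Below both lay 2 (6.45%, against 19.1%). The list median was 0.51 (0.27 without clone 2 and 1.08 without clone 3), with no call.

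Genes of cholesterol synthesis also stood higher in both lines. Of 29 members, all tested, 19 lay above clones 2 and 3 in both epi lines (65.5%, against 19.4% of all genes) and none below (against 19.1%). The median log2 fold change was 0.89, and 0.77 without clone 1, with 27 of 29 positive. None was called, and 9 were higher and none lower at an unadjusted p under 0.05, against 2.67% and 2.17% of all genes. Without clone 1, 10 were higher and none lower. The list summed to 6890 and 4280 CPM in the epi lines and to 2470, 3140 and 4060 CPM in the clones. In the mesenchymal lines it summed to 5270 CPM in T1-mes, above T4-epi, and to 1860 CPM in T3-mes. Cyp51, a sterol demethylase named by the rule, was at 172, 357 and 147 CPM in the clones and at 1130 and 424 CPM in the epi lines (1.77 ± 0.57, adjusted p = 0.482). Scd2, a fatty acid desaturase, was at 1150, 1220 and 2370 CPM and at 1970 and 1730 CPM, with overlap. Named afterwards, Acat2, which feeds acetyl groups into the pathway, was at 75.1, 113 and 115 CPM and at 469 and 282 CPM (adjusted p = 0.243). T2-epi was the higher line in each of these 3 genes. The list median of T2-epi was 1.07 above clone 2 and 1.05 above clone 3, while that of T4-epi was 0.47 and 0.52 above them.

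**Figure D3:**
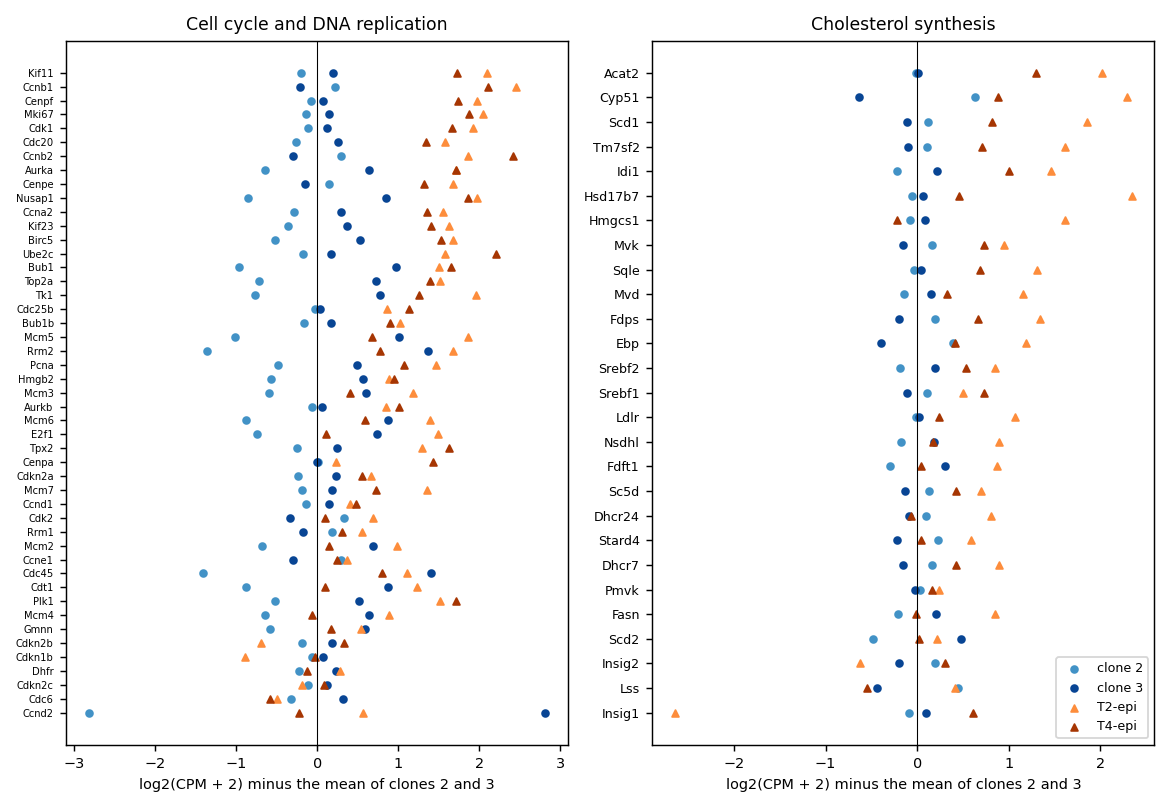
Levels of the tested cell cycle and DNA replication genes (left, 47) and cholesterol synthesis genes (right, 27 of the 29), ordered by log2 fold change, as log2(CPM + 2) minus the mean of clones 2 and 3, with circles for the clones and triangles for T2-epi and T4-epi. In the upper rows both triangles lie to the right of both circles, and T2-epi exceeds T4-epi in most cholesterol genes.

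Interferon-stimulated genes stood higher at low levels. Of 29 tested members, 15 lay above clones 2 and 3 in both epi lines (51.7%, against 19.4% of all genes) and 2 below (6.90%, against 19.1%). The median log2 fold change was 0.51 (0.58 without clone 1), with no call. At an unadjusted p under 0.05, 4 were higher and none lower, against 2.67% and 2.17% of all genes. Without clone 1, 5 were higher and none lower. The most abundant members were named by the rule. Lgals3bp was at 173 and 169 CPM in the epi lines and at 193, 119 and 88.3 CPM in the clones, and Trim25 was at 101 and 124 CPM and at 42.9, 93.0 and 92.9 CPM, so that both lay above clones 2 and 3 in the epi lines (log2 fold changes 0.44 and 0.45). Ifit1, an antiviral RNA-binding protein named afterwards, was at 0, 1.71 and 1.68 CPM in the clones and at 6.90 and 22.7 CPM in the epi lines (adjusted p = 0.317). Of 18 tested antigen presentation genes, 7 lay above (38.9%, against 19.4% of all genes) and none below (against 19.1%), with a median of 0.28 (0.27 without clone 1).

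On the other side, 4 metabolic lists leaned lower. Of 72 tested cytosolic ribosomal protein genes, 38 lay below clones 2 and 3 in both epi lines (52.8%, against 19.1% of all genes) and 3 above (4.17%, against 19.4%), with a median of -0.35. Of 39 glutathione and NRF2 genes 18 lay below (46.2%) and 5 above (12.8%), with a median of -0.17. Of 64 nuclear oxidative phosphorylation genes 24 lay below (37.5%) and 5 above (7.81%), with a median of -0.22. Of 35 hypoxia and glycolysis genes 11 lay below (31.4%) and 2 above (5.71%), with a median of -0.33 that was -0.02 without clone 3, -0.06 without T2-epi and -0.75 without T4-epi. No member of the 4 lists was called. By edgeR 3, 6, 1 and 3 members in that order were lower at an unadjusted p under 0.05, against 2.17% of all genes. For oxidative phosphorylation, 1 of 64 is near that share. Without clone 1 the counts were 1 of 72, 10 of 37, 2 of 64 and 1 of 35, against 3.03% of all genes. Only the glutathione count lay well above that share. The medians without clone 1 were -0.31, -0.32, -0.23 and -0.44. In the median clone 3 stood above clone 2 by 0.21, 0.51, 0.22 and 0.22. Against clone 2 alone, the oxidative phosphorylation medians were -0.08 and -0.09. Within the glutathione list Cbr1, a carbonyl reductase named after its value was seen, was at 718, 437 and 740 CPM in the clones and at 186 and 182 CPM in the epi lines (-1.77 ± 0.53, adjusted p = 0.408). Gpx1, the main intracellular glutathione peroxidase, was at 440, 2910 and 1250 CPM and at 569 and 859 CPM, so that clone 1 overlapped the epi lines. Me1, a malic enzyme, was at 804, 871 and 940 CPM and at 660 and 1180 CPM (log2 fold change 0.07). Pgk1, a glycolytic enzyme, was at 3440, 4180 and 4090 CPM and at 2370 and 3040 CPM (adjusted p = 0.998).

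**Figure D4:**
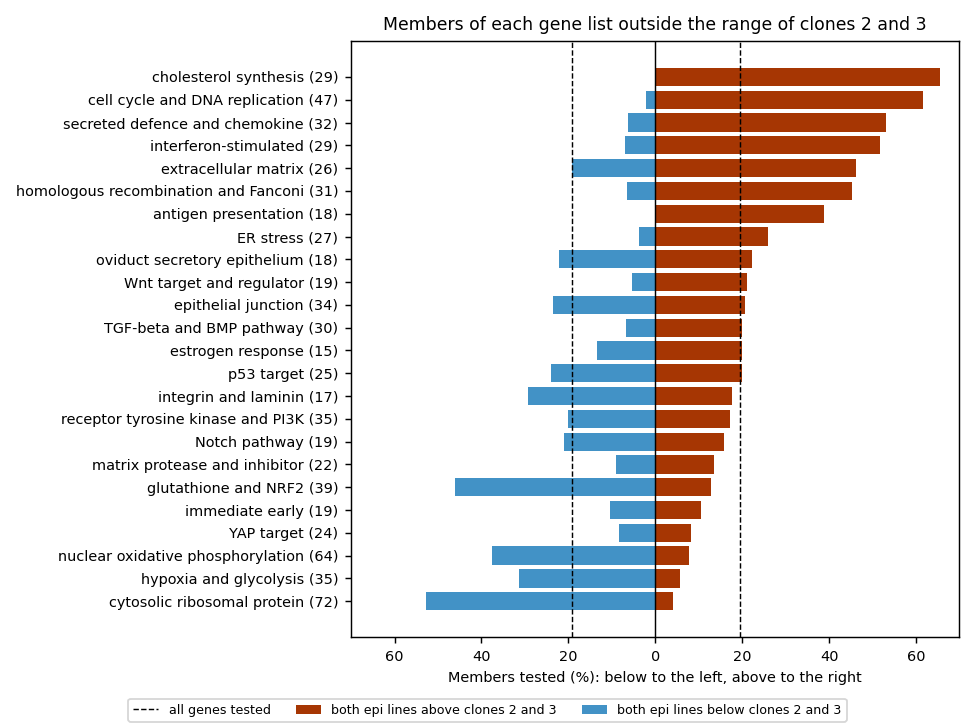
For each gene list with at least 15 tested members (number in brackets), the percent of members for which both epi lines lay above (right, red) or below (left, blue) both clone 2 and clone 3. Dashed lines mark the shares over all genes tested, 19.4% above and 19.1% below. Cholesterol synthesis (65.5% above) and cytosolic ribosomal protein genes (52.8% below) lie at the ends.

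The epi lines also differed from each other. Of 3666 genes with at least 50 CPM in T2-epi or T4-epi, 41 were more than 4-fold apart on the log2(CPM + 2) scale, 35 of them higher in T4-epi. With 1 library each this is a description without a test, and the genes were chosen by that difference. In 10 of the 41 T4-epi lay within the range of clones 2 and 3 while T2-epi lay outside it, and in 6 it was the other way round. Adh1, an alcohol dehydrogenase, was at 65.1 CPM in T2-epi and 1140 CPM in T4-epi, beside 161, 1140 and 1870 CPM in the clones. Prap1 was at 75.5 and 634 CPM, beside 1450, 704 and 1510 CPM. Arg1, an arginase, was at 371 and 2040 CPM, beside 6880, 3610 and 1070 CPM. In each of these T2-epi lay below all 3 clones. Hypoxia-regulated genes were among the 41. Ndrg1 was at 176 CPM in T2-epi and 1050 CPM in T4-epi, beside 1070, 1070 and 1400 CPM in the clones, and Ero1l was at 659 and 2820 CPM, beside 3020, 3110 and 2120 CPM. The hypoxia list median was 0.62 lower in T2-epi than in clone 2 and 0.79 lower than in clone 3 on the log2 scale, and 0.01 and 0.25 lower in T4-epi.

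Xist, the RNA that coats the inactive X chromosome, showed the opposite order. It was at 141 CPM in T2-epi and 1.55 CPM in T4-epi, and at 21.4, 73.0 and 219 CPM in the clones. The mesenchymal lines were split in the same way, with 80.2 CPM in T1-mes and 1.47 CPM in T3-mes. The median level of X-linked genes was near that of the clones in both epi lines, at -0.05 and -0.07 on the log2 scale against clone 2 and at 0.03 and 0.03 against clone 3.

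Levels were last compared by chromosome, over 5836 placed genes with at least 20 CPM on average in clones 2 and 3. T4-epi was within 0.10 of clone 2 in the median on every chromosome except 7 (-0.16) and 16 (-0.25). T2-epi was within 0.14 of clone 2 on every chromosome except 7 (-0.44), 9 (-0.22) and 12 (-0.22). Clones 2 and 3 differed more, from -0.47 on chromosome 7 to 0.46 on chromosome 19 for clone 3 over clone 2. Against clone 3 both epi lines accordingly stood lower on chromosomes 4, 8, 12, 17, 18 and 19, by medians from -0.22 to -0.53. They stood higher than clone 3 on chromosomes 2 (0.17 and 0.15), 7 (0.12 and 0.32), 10 (0.21 and 0.25) and 13 (0.23 and 0.27). These medians are levels of bulk RNA, do not count chromosomes and were not tested, and the genes of a chromosome in 1 library are not replicates. By metaphase spreads, the paper reports that chromosome abnormalities were more widespread in all its tumor-derived lines than in the clone they came from.

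**Figure D5:**
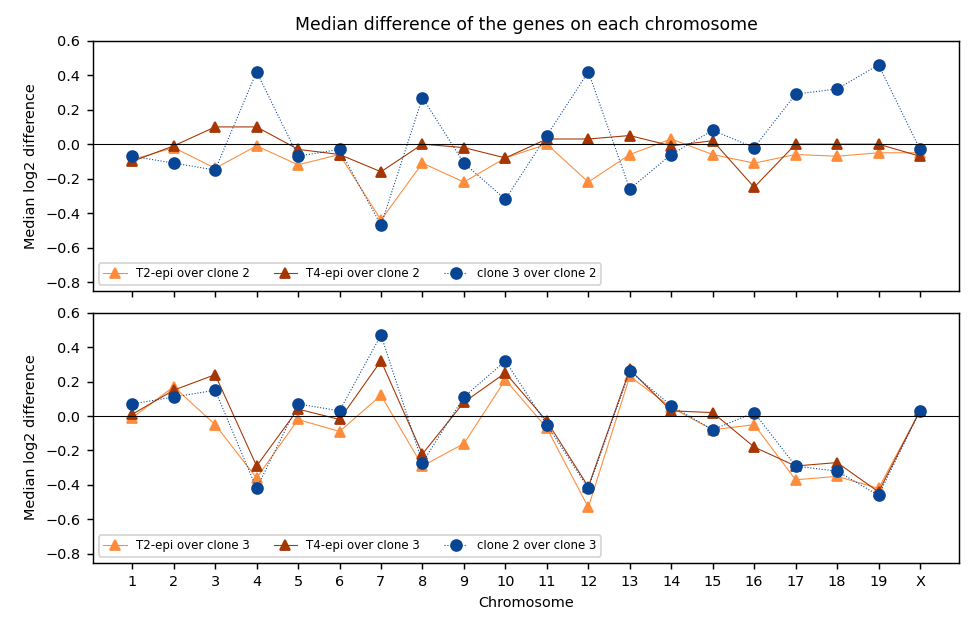
Median log2(CPM + 2) difference of the genes on each chromosome (x axis), with T2-epi and T4-epi over clone 2 in the upper panel and over clone 3 in the lower panel (triangles), and the difference between the clones beside them (circles). The triangles stay near 0 against clone 2 except on chromosomes such as 7, and follow the circles against clone 3.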

How the data were processed

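RNA was sequenced by CEL-Seq2, a 3′-end method. The authors deposited 1 table of whole-number read counts per gene, without correction for molecular identifiers, aligned with BWA to GRCm38 with unique reads kept; DESeq2 1.18.0 is named in the submitters' processing notes. Of its 27 columns, 11 were not used here. A spike-in row was left out. Groups came from the labels. Counts were tested with edgeR 4.0.16 (glmQLFit, glmQLFTest), filterByExpr on the 5 compared libraries, TMM factors over 16 libraries of the edited lineage, and Benjamini-Hochberg adjustment over all genes tested at 0.05. The SE is the log2 fold change over the root of F. Genes were placed with GENCODE vM21, with 17121 of 18305 symbols matched directly and 967 by older symbols.

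Alternatives were RLE factors, factors from the 5 libraries, DESeq2 1.42.0, no filter, a fit of 10 organoid libraries, leaving out each library, and a fold threshold. On simulated counts for this comparison (9292 genes), edgeR recovered 36.7% of genes changed 4-fold and 98% of those changed 16-fold. The simulated counts followed the fitted trend of spread, without the differences in spread between single genes. These shares are therefore not detection rates for the data. There, Col1a2 and Gpx3, with log2 fold changes of 8.32 and -10.62, were not called. Named genes were, per direction, 12 with both epi lines beyond clones 2 and 3 and at least 20 CPM in the higher group, those called by fold first and then those with the smallest p, and per gene list the called members or the 2 most abundant. The compared libraries and the gene lists were chosen with earlier results of these data known. The third targeted gene and some members of the lists are not reported singly here.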

Additional observations from a re-analysis of the deposited data

Results flagged for a closer look

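In the 6 tumors, 25 genes named for the epi lines were checked for a library that stood apart from the rest of its group, measured as its gap to the nearest value over the range, and 3 were found. Sema6a was at 28.1 CPM in tumor 5, with the next tumor at 14.8 CPM. Gas1 was at 751 CPM in tumor 4, with the next at 286 CPM. Tm4sf20 was at 1.09 CPM in tumor 3 and at 0 in the other tumors, which is a few reads. Chance flags about 1 in 20 such groups, and the compared groups of 2 and 3 libraries are too small for this check.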

How the results depend on the processing

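The number of genes called depended on the processing. Against 6 higher and 1 lower, edgeR called 6 and 0 with RLE factors, 4 and 0 with factors from the 5 libraries, 50 and 55 with no filter on low counts, and 0 and 0 in the fit of 10 organoid libraries, and DESeq2 called 13 and 12. A log2 fold change beyond 1 as a further condition left 6 and 1. Leaving out 1 library gave from 0 to 65 higher and from 0 to 35 lower: 0 and 0 without clone 1, 65 and 35 without clone 2, 15 and 9 without clone 3, 17 and 5 without T2-epi, and 13 and 13 without T4-epi. Where an epi line was left out, the other was assumed to vary like the clones. Of the 7 genes called, Ccl20 and Gm9926 passed the threshold in every setting except the fit of 10 libraries and the fit without clone 1. The cause of these changes was not tested. For 26 genes, those plotted by name and Brca1, no log2 fold change changed its sign in the settings where the gene was fitted. Gpx3 and BC048546 were fitted in 9 of 11 settings, and Hspb8 and Col1a2 in 10. All but Brca1 and Gm9926 were chosen because both epi lines lay beyond clones 2 and 3. A stable sign was therefore largely fixed by that choice. Without clone 1, Epcam went from 0.05 to -0.07 and Krt8 from 0.06 to -0.09.

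With 1 library left out, list medians ranged from 0.74 to 1.5 for the cell cycle (1.5 without clone 3), 0.53 to 1.13 for cholesterol synthesis (0.53 without T2-epi), 0.51 to 0.62 for interferon-stimulated, -0.43 to -0.04 for glutathione and NRF2, -0.27 to -0.12 for nuclear oxidative phosphorylation, -0.33 to 0.33 for immediate early, -0.97 to 0.86 for motile cilium, -0.11 to 0.17 for oviduct secretory, -0.16 to 0.21 for p53 target and -0.13 to 0.15 for receptor tyrosine kinase and PI3K genes. The last 5 lay on both sides of 0, as did 18 of 31 lists in all. With no filter the motile cilium median was -1.33 and the mesothelial and OSE median 0.53. Chromosome medians were refitted only with RLE factors and without clone 1, and none moved by more than the pooled spread between libraries. That spread includes the shallow clone 1, so the check is weak. No paired analysis was possible because the labels do not say which clone gave rise to which tumor. The numbers of the clones and of the epi lines are separate and do not mark pairs. Leaving out the clone with most of its reads, an alternative chosen after seeing the data, lowered the bound of BC048546 from 84.8-fold to 4.3-fold. Depth limited clone 1, where 3 reads are 32.2 CPM.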

Other observations

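For 4 genes outside the naming rule, picked after their values were seen, both epi lines lay above clones 2 and 3 at low levels. Afp, the fetal serum protein, had no read in any clone and was at 12.8 CPM in T2-epi and 5.16 CPM in T4-epi, at least 18.2-fold higher against a floor of 3 reads over the 3 clones (edgeR, adjusted p = 0.0761). Rbp4, a retinol carrier, was at 0, 1.14 and 0.722 CPM in the clones and at 14.8 and 17.0 CPM in the epi lines (adjusted p = 0.0697), with no read in either mesenchymal line. Mrc1, the mannose receptor, was at 10.7, 1.71 and 0.241 CPM and at 6.90 and 51.6 CPM, with T2-epi below clone 1 (adjusted p = 0.104). Gata4, a transcription factor of gonad and gut, was at 0, 5.71 and 3.37 CPM and at 68.6 and 21.2 CPM (adjusted p = 0.0529).

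Of 25 tested members of the p53 target list 5 lay above clones 2 and 3 in both epi lines (20%, against 19.4% of all genes) and 6 below (24%, against 19.1%). The median log2 fold change was -0.08 (-0.15 without clone 1), with no call. Cdkn1a, the cell cycle inhibitor p21, was at 590, 540 and 1020 CPM in the clones, 202 CPM in T2-epi and 800 CPM in T4-epi. Pmaip1, which encodes the pro-apoptotic protein NOXA, was at 290, 435 and 364 CPM in the clones and at 123 and 301 CPM in the epi lines. In the oviduct secretory list 4 of 18 tested members lay above and 4 below (22.2% each), with a median of 0.05. Ovgp1, the oviduct-specific glycoprotein, was at 0, 73.6 and 53.2 CPM in the clones and at 8.38 and 37.7 CPM in the epi lines (adjusted p = 0.998).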
